A study of Homo sapiens with 52 samples.

Results

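Hepatoblastoma cells of 2 lines, HepG2 and Huh6, were given the same dose of iMDK, a small molecule used to inhibit midkine, and the question here is which genes answered alike in both lines and which in 1 line only. The comparison takes 12 of the 52 libraries of the study: 3 of HepG2 with 5 uM iMDK, 3 of HepG2 with empty vehicle, 3 of Huh6 with 5 uM iMDK and 3 of Huh6 with empty vehicle. All 12 came from cells left for 48 h in medium with the inhibitor or vehicle before poly(A) RNA was sequenced. The libraries were chosen by their labels alone, and no measured value entered the choice. The remaining libraries hold other doses, a Wnt pathway inhibitor and THP-1 macrophages. Each line stands for 1 tumour, and whether the 3 libraries of a group came from separate cultures is not stated, so p-values measure the spread between these libraries, which may be technical.

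Midkine, the product of MDK, is a secreted heparin-binding growth factor that is abundant in the embryo and in many tumours and scarce in most adult tissues. It binds proteoglycans and receptors such as LRP1 and the syndecans, and is studied in liver tumours for its effects on growth and on immune cells. Both lines carry an active beta-catenin pathway, a hallmark of hepatoblastoma. In such a design the line difference is the fold change of iMDK over vehicle in HepG2 minus that in Huh6, on the log2 scale, so a positive value means that a gene went up more, or down less, in HepG2.

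Library totals ranged from 18287245 to 20037148 counts, so 3 counts correspond to 0.15 to 0.164 CPM, the usual unit of counts scaled to a fixed library size. The mitochondrially encoded share was 6.85% to 7.76% in HepG2 with iMDK and 5.55% to 7.45% with vehicle, and 2.81% to 3.04% in Huh6 with iMDK and 2.8% to 3.23% with vehicle. Of 8 hepatoblastoma markers, the oncofetal glypican GPC3, the keratins KRT8 and KRT18, APOA1 and TF were high in both lines. ALB was high in HepG2 and near 0 in Huh6, with 3.69 CPM as its highest library. DLK1 stood at 456 to 519 CPM in HepG2 and at most 0.253 CPM in Huh6. AFP stood at 2310 to 3390 CPM in HepG2 and 32.5 to 71 CPM in Huh6. Of 9 leukocyte markers, PTPRC, TYROBP and CD3E reached at most 0.0517 CPM in any library of either line, while LYZ stood at 1110 CPM or more in HepG2 and CSF1R at 10.5 to 34.9 CPM in Huh6. Summed, the 5 tested members had 1150 to 1180 CPM in HepG2 with iMDK, against 1140 to 1270 CPM with vehicle. In Huh6 they had 37.1 to 41.3 CPM with iMDK, against 15 to 18.9 CPM with vehicle. Among these 5, CSF1R rose by 1.51 ± 0.10 and CD163 by 0.63 ± 0.23 in Huh6 on the log2 scale. ITGAM, at 1.15 CPM or less, rose by 2.15 ± 0.52 in HepG2. The 4 tested of 7 fibroblast markers summed to 16 to 17.9 CPM in HepG2 with iMDK, against 17.5 to 20.1 CPM with vehicle. In Huh6 they summed to 244 to 267 CPM with iMDK, against 407 to 416 CPM with vehicle. COL1A2 fell by 0.69 ± 0.04, COL1A1 by 0.35 ± 0.06 and PDGFRB by 0.90 ± 0.05 in Huh6, whereas COL3A1, DCN and LUM reached at most 0.306 CPM in any library. The 4 tested of 6 endothelial markers summed to 23.7 to 26.5 CPM in HepG2 with iMDK, against 19.1 to 20.1 CPM with vehicle. In Huh6 they summed to 108 to 114 CPM with iMDK, against 140 to 149 CPM with vehicle. The part of these markers in the results was not tested. Of 640 genes in the lists used here, 61 were listed at 0 in all 12 libraries, among them genes that most cells use, and are not described further.

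iMDK changed more genes, and by more, in HepG2 than in Huh6. With edgeR's quasi-likelihood F test and a Benjamini-Hochberg adjusted p under 0.05, 3617 of 15431 genes (23.4%) were higher and 3625 (23.5%) lower in HepG2 with iMDK than with vehicle, together 46.9%. In Huh6 2246 genes (14.6%) were higher and 2830 (18.3%) lower, together 32.9%. At least 2-fold changes numbered 790 up and 391 down in HepG2, and 227 up and 215 down in Huh6. The line difference itself passed the same threshold for 2403 genes in the positive direction (15.6%) and 2621 in the negative (17%), so the response differed between the lines for 32.6% of genes. Before treatment the lines were already far apart, with 12577 genes (81.5%) different, 39.4% higher and 42.1% lower in HepG2 vehicle than in Huh6 vehicle.

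A total of 3235 genes passed in both lines, which is 44.7% of those called in HepG2 and 63.7% of those called in Huh6. Of these, 1107 were higher in both, 1464 lower in both, 356 higher in HepG2 and lower in Huh6, and 308 lower in HepG2 and higher in Huh6. Among those that moved the same way, the size of the change differed between lines for 1168, being larger in HepG2 for 918 and larger in Huh6 for 250. For the other 1403 no difference in size was called.

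Genes were then sorted into classes. A gene counted as shared when it was called in both lines in the same direction with a log2 fold change of at least 1 in size in both, which held for 58 genes that rose and 18 that fell. HepG2-specific genes were called with at least 1 in HepG2, stayed under 0.5 in size in Huh6, had a called line difference and reached a mean of 1 CPM in both lines: 205 rose and 231 fell. By the mirror rule 24 Huh6-specific genes rose and 32 fell. Another 66 genes were called in opposite directions with at least 0.5 in size in both lines, 60 of them higher in HepG2 and lower in Huh6. All classes leave out called genes changed at least 2-fold in 1 line with a mean under 1 CPM in both groups of the other. IFI44 and OASL, called up in both lines, and LCN2, called up in HepG2 and down in Huh6, were left out in this way. These counts follow the limits chosen, and other limits move them by more than 1.5 times, as the closing section gives. In the plot of both responses the HepG2-specific genes lie along the horizontal axis in larger number than Huh6-specific genes along the vertical one.

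**Figure D1:**
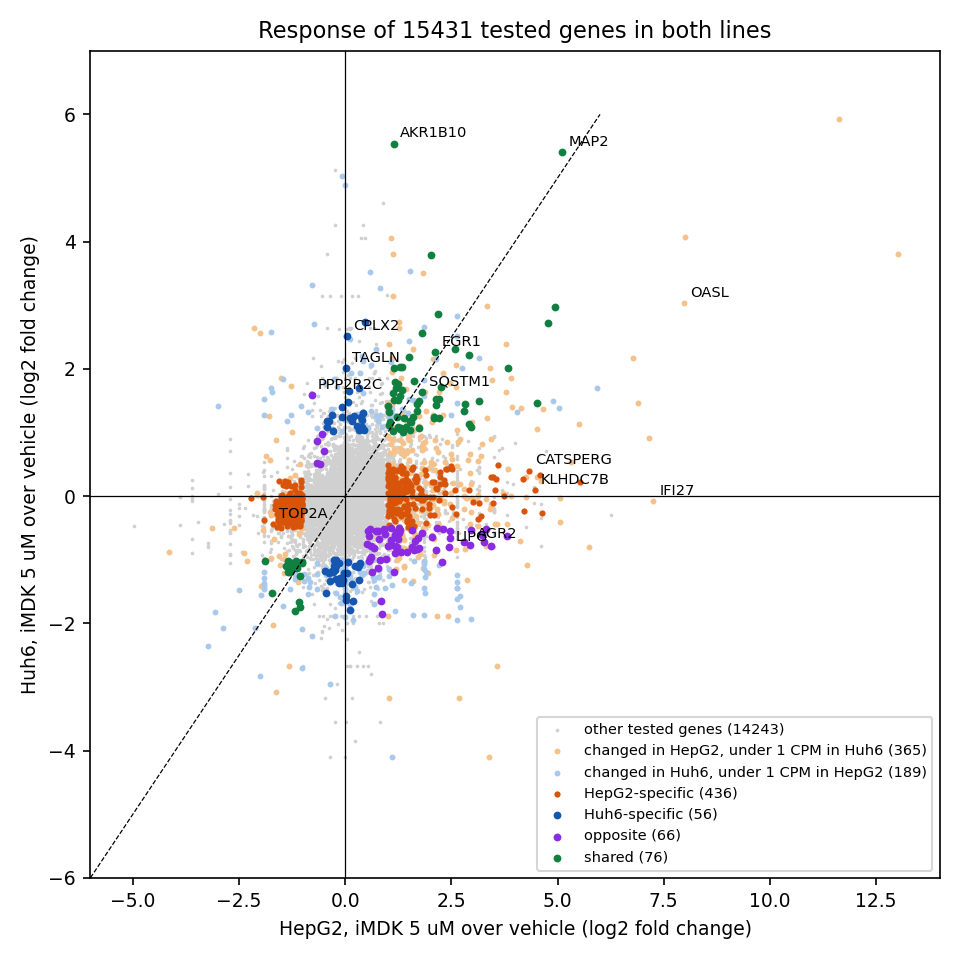
Log2 fold change of iMDK 5 uM over vehicle in HepG2 (horizontal axis) against Huh6 (vertical axis), 1 point per tested gene, coloured by class, from 3 libraries per group; the dashed line marks equal change. The 436 HepG2-specific genes spread along the horizontal axis, the 56 Huh6-specific genes along the vertical axis, and the 76 shared genes, such as MAP2 and SQSTM1, lie in the upper right and lower left.

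MDK, the nominal target, fell by a small amount in both lines. MDK (chr11:46380756-46383837, GRCh38, forward strand, protein coding) had 250.2, 258 and 256 CPM in HepG2 with iMDK, against 293, 279 and 296 CPM with vehicle, and 351, 361 and 349.7 CPM in Huh6 with iMDK, against 446, 439 and 422 CPM with vehicle. The groups did not overlap in either line, and MDK fell by 0.19 ± 0.03 in HepG2 and 0.30 ± 0.03 in Huh6 on the log2 scale (SE, n = 3 libraries per group, edgeR adjusted p = 3.57e-06 and 3.48e-10), a line difference of 0.12 ± 0.04 (adjusted p = 0.0331). That difference lost its call in 12 of 17 other settings (adjusted p up to 0.225), so no difference in the fall of MDK is claimed. Of 12 tested genes of midkine and its reported receptors, 4 were higher and 5 lower in HepG2 (23.4% and 23.5% of all genes), and 3 were higher and 3 lower in Huh6 (14.6% and 18.3% of all genes). The line difference was called for 10 of them, 5 in each direction, against 15.6% of all genes in the positive and 17% in the negative direction. These shares of all genes are the measure for the counts of every gene list that follows.

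Among the receptors, SDC4 rose in HepG2 and LRP1 fell there. The heparan sulphate proteoglycan SDC4 had 375, 394 and 392 CPM in HepG2 with iMDK, against 190.3, 199.98 and 205 CPM with vehicle, a rise of 0.96 ± 0.03. In Huh6 it had 101, 109 and 109 CPM with iMDK, against 101, 99.3 and 104 CPM with vehicle, groups that overlapped, and the line difference was 0.90 ± 0.05 (adjusted p = 5.88e-16). SDC3, at a lower level, rose by 0.49 ± 0.07 in HepG2 and had a log2 fold change of -0.04 ± 0.06 in Huh6 (adjusted p of the difference = 2.2e-05). LRP1, a large endocytic receptor, fell by 0.52 ± 0.09 in HepG2, where its libraries varied widely, with 287, 295 and 384 CPM with iMDK against 549, 401 and 439.7 CPM with vehicle. In Huh6 the log2 fold change of LRP1 was 0.02 ± 0.09 (adjusted p = 0.88), and the line difference passed in edgeR (adjusted p = 0.000764) but not in DESeq2 (adjusted p = 0.0801).

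MAP2, a microtubule-associated protein best known from neurons (chr2:209424058-209734118, forward strand), rose in both lines. Taking the smaller change of each gene, no other shared gene that met the rule for named genes, given below, rose by more. MAP2 had 5.49, 4.52 and 5.39 CPM in HepG2 with iMDK, against 0.156, 0.104 and 0.168 CPM with vehicle. The Huh6 libraries had 27.5, 28.9 and 27.1 CPM with iMDK, against 0.508, 0.571 and 0.867 CPM with vehicle. These are log2 fold changes of 5.11 ± 0.28 and 5.41 ± 0.16, with a line difference of -0.29 ± 0.67 (adjusted p = 0.801, 95% interval -1.65 to 1.07), which is too wide to call the rises alike or different. A second microtubule-associated gene, MAP1A, rose by 3.15 ± 0.25 in HepG2 and 1.502 ± 0.12 in Huh6, the larger in HepG2 (adjusted p of the difference = 5.01e-05). LUCAT1, a long noncoding RNA, rose by 2.19 ± 0.09 in HepG2 and 2.86 ± 0.16 in Huh6, and BMP6, a signalling protein that induces hepcidin in the liver, by 1.35 ± 0.14 and 1.67 ± 0.09.

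Of the 76 shared genes, 12 were alike in the strict sense that the 95% interval of the line difference lay within 0.5 on the log2 scale of no difference. SQSTM1, the autophagy receptor p62 (chr5:179806398-179838078), had 798, 809 and 778 CPM in HepG2 with iMDK, against 229, 219.9 and 229 CPM with vehicle, and 661, 671 and 644 CPM in Huh6 with iMDK, against 213, 209 and 211 CPM with vehicle. Its log2 fold changes were 1.82 ± 0.03 and 1.64 ± 0.03, and the difference, though called, was only 0.17 ± 0.04 (adjusted p = 0.000649). The immediate early transcription factor EGR1 rose by 2.11 ± 0.07 in HepG2, to 63.1, 70.9 and 71.8 CPM, against 17.2, 15.9 and 14.4 CPM with vehicle. In Huh6 it rose by 2.27 ± 0.12, to 14.3, 14.4 and 13.3 CPM, against 2.896, 3.06 and 2.75 CPM with vehicle, so the fold was alike although the level was several times lower in Huh6. The stress cytokine GDF15 rose by 1.43 ± 0.03 in HepG2 and 1.09 ± 0.03 in Huh6. Its line difference of 0.33 ± 0.04 was called too (edgeR adjusted p = 2.22e-07), with a 95% interval of 0.24 to 0.42. OPTN, another autophagy receptor, NABP1, BICDL1, BCAN, ANKRD1 and CYP4F11 complete the risers of this group. Those that fell alike were AGXT, a peroxisomal enzyme of hepatocytes that fell by 1.34 ± 0.07 in HepG2 and 1.19 ± 0.06 in Huh6, the dipeptidase DPEP1 (-1.27 ± 0.08 and -1.06 ± 0.08) and TMPRSS6, a liver protease that restrains hepcidin (-1.13 ± 0.14 and -1.03 ± 0.10).

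For 33 shared genes the sizes differed, with the larger change in HepG2 for 18 and in Huh6 for 15. ATF3, a stress-induced transcription factor, had 72.6, 66.3 and 67.6 CPM in HepG2 with iMDK, against 15.8, 16.3 and 14.6 CPM with vehicle, and 66.2, 75.7 and 72.1 CPM in Huh6 with iMDK, against 23.9, 25.5 and 25.1 CPM with vehicle. The treated libraries of both lines overlapped each other in level, but the vehicle level was lower in HepG2, and the log2 fold changes were 2.14 ± 0.06 and 1.52 ± 0.06 (adjusted p of the difference = 7.02e-07). Among 20 tested immediate early and MAPK feedback genes, 12 rose and 3 fell in HepG2, and 10 rose and 4 fell in Huh6. The rises exceeded the shares over all genes (23.4% and 14.6%), while the falls were below that share in HepG2 (23.5%) and near it in Huh6 (18.3%). FOS (1.49 ± 0.25 and 2.18 ± 0.29) was shared as EGR1 was. FOSL1, a partner of JUN in AP-1, rose more in Huh6 (0.87 ± 0.06 in HepG2 and 1.48 ± 0.08 in Huh6, adjusted p of the difference = 1.88e-05).

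Interferon-stimulated genes rose in HepG2 and hardly in Huh6, and no other list used here had a larger median line difference, at 3.11 on the log2 scale against 0.021 over all genes. Type I and type III interferons act through a transcription factor complex that binds an interferon-stimulated response element and switches on antiviral effectors. All 27 tested members of the list rose in HepG2 (23.4% of all genes rose), with a median log2 fold change of 2.52 against 0.017 over all genes. In Huh6 5 of the 27 rose and 3 fell (14.6% and 18.3% of all genes), with a median of 0.10 against -0.015. The line difference was called in the positive direction for 21 and in the negative for 0 (15.6% and 17% of all genes). Only 13 of the 27 reached a mean of 1 CPM in both lines, and summed over the list the level was 2220 to 2390 CPM in HepG2 with iMDK, against 545 to 554 CPM with vehicle, and 450 to 465 CPM in Huh6 with iMDK, against 444 to 447 CPM with vehicle.

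Several of these genes were silent or nearly so in HepG2 before treatment. RSAD2, the antiviral enzyme viperin (chr2:6865806-6898239), had 50.6, 54.1 and 53.4 CPM in HepG2 with iMDK, against 0 counts in all 3 vehicle libraries. Huh6 cells had 5 counts, all in 1 of the 3 iMDK libraries, and 0 over the vehicle libraries. Allowing 3 counts over the vehicle group, RSAD2 was at least 1025-fold higher in HepG2 with iMDK, and IFI44, a second antiviral protein gene with 0 counts in HepG2 vehicle, at least 392-fold. With vehicle groups at 0 in both lines the fitted line difference of these genes has no base (edgeR adjusted p = 1.00 for both), although DESeq2 called it for IFI44 (adjusted p = 0.00454). IFI44 was also detected in Huh6, with 0.298, 0.656 and 0.198 CPM with iMDK, against 0 counts with vehicle, at least 7.60-fold higher.

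Genes with counts in every group show the same split. IFI27 (chr14:94104836-94116698) had 106, 106 and 100.46 CPM in HepG2 with iMDK, against 1.04, 0.312 and 0.671 CPM with vehicle, and 0.695, 0.454 and 0.889 CPM in Huh6 with iMDK, against 0.661, 0.416 and 1.07 CPM with vehicle. Only the treated HepG2 libraries stood apart, and the line difference was 7.33 ± 0.50 (adjusted p = 6.16e-14). HERC5, which attaches ISG15 to proteins, had 59.2, 56.5 and 61.8 CPM in HepG2 with iMDK, against 0.416, 0.468 and 0.336 CPM with vehicle, while in Huh6 it had 12 counts over the 3 iMDK libraries and 6 over the vehicle libraries. IFI6 rose by 4.64 ± 0.05 in HepG2, with 281, 287 and 291 CPM with iMDK against 11.97, 9.87 and 12.7 CPM with vehicle. Its Huh6 values were 1.19, 1.26 and 1.38 CPM with iMDK, against 1.58, 1.61 and 1.43 CPM with vehicle, and did not pass (adjusted p = 0.395).

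Huh6 was not without a response. ISG15, the ubiquitin-like modifier of the interferon response, had 397, 417 and 429 CPM in HepG2 with iMDK, against 26.03, 25.6 and 25.8 CPM with vehicle, a log2 fold change of 4.005 ± 0.05. In Huh6 it had 22.1, 24.5 and 20.1 CPM with iMDK, against 12.7, 12.6 and 12.1 CPM with vehicle, a smaller rise of 0.83 ± 0.07 (adjusted p = 1.54e-11), and the line difference was 3.17 ± 0.09 (adjusted p = 3.05e-23). OASL, an oligoadenylate synthetase-like protein, rose by 7.97 ± 0.16 in HepG2 and by 3.03 ± 0.67 in Huh6, where it reached only 0.248, 0.454 and 0.691 CPM with iMDK, against 0.102, 0.0519 and 0 CPM with vehicle.

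**Figure D2:**
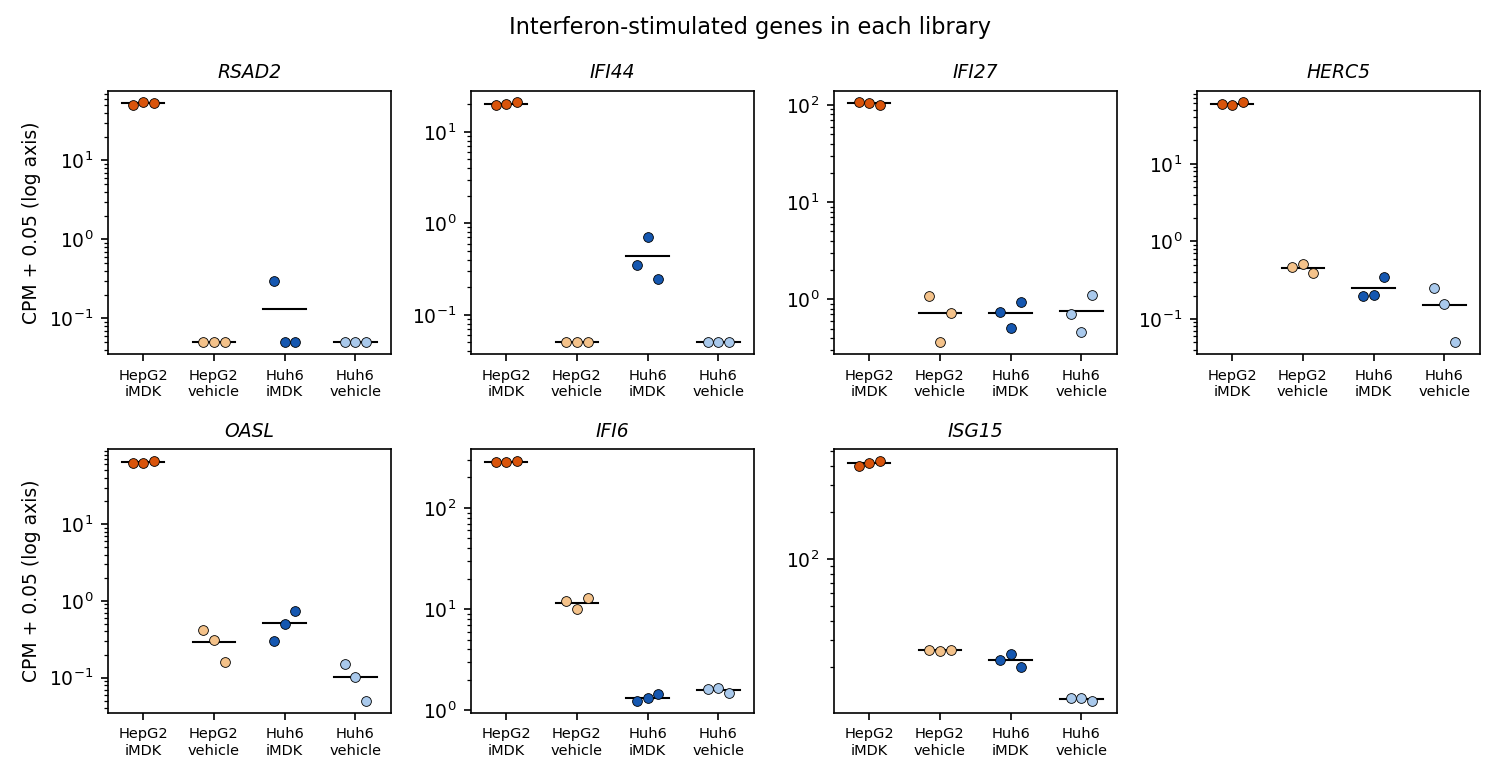
CPM plus 0.05 on log axes for 7 interferon-stimulated genes in each of 3 libraries per group (points) with the group mean (line), for HepG2 with iMDK, HepG2 with vehicle, Huh6 with iMDK and Huh6 with vehicle. In every panel the 3 treated HepG2 libraries lie above all others, and the treated Huh6 libraries lie above their vehicle for ISG15, OASL and IFI44.

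The promoter stretches of ISG15, IFI6 and HERC5 are shown because they carry the element through which interferon acts. Each is the 250 bases before the start site in RefSeq (GRCh38.p14), 5′ to 3′ on the strand of the gene, and capitals mark every match on either strand to the core of the interferon-stimulated response element, which is GAAA, then any 2 bases, then GAAA. The coordinates are chr1:1013247-1013496 on the forward strand for ISG15, chr1:27672193-27672442 on the reverse strand for IFI6 and chr4:88456869-88457118 on the forward strand for HERC5.
ISG15: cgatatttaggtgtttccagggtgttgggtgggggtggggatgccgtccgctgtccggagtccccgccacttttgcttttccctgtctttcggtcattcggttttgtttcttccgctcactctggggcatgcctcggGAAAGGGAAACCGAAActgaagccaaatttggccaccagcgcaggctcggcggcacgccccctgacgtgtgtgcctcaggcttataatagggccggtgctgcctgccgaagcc
IFI6: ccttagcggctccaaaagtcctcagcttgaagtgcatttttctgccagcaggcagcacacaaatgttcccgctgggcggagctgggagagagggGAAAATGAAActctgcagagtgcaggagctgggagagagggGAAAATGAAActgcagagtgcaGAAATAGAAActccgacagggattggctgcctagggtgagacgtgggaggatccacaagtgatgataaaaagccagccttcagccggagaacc
HERC5: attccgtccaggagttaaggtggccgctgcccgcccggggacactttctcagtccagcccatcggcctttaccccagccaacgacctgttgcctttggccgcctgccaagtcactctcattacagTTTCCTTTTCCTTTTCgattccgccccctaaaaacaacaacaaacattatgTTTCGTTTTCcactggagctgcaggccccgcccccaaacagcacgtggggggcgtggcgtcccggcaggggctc
ISG15 held 2 matches that overlap each other, the first starting 113 bases before the start site, while IFI6 held 3 and HERC5 held 3 on the opposite strand, 2 of them overlapping. In windows of 250 bases before to 50 after the start, 15 of 23 tested list members with a sequence held a match (65.2%). RSAD2 was among those with 0 matches. A match was also held by 12 of 145 HepG2-specific genes that rose (8.28%). These shares overlap, since 7 tested list members are HepG2-specific. Of tested genes 289 of 11006 held one (2.63%), and of all 27305 promoters 996 (3.65%). Of 16 Huh6-specific risers with a sequence, 0 held one. A match describes letters and not a bound site.

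Sensors and receptors of the interferon system moved less. DHX58 and IFIH1, receptors for double-stranded RNA, rose by 2.10 ± 0.11 and 1.503 ± 0.07 in HepG2. In Huh6 both stayed under 1 CPM, and IFIH1 rose there by 0.89 ± 0.32 (adjusted p = 0.0366), a call lost in 7 of 18 other settings (adjusted p up to 0.158), with no called line difference (adjusted p = 0.221). IFNAR1, a chain of the type I receptor, rose by 0.21 ± 0.05 in HepG2 and had a log2 fold change of 0.04 ± 0.06 in Huh6 (adjusted p of the difference = 0.0918), while IFNLR1, a chain of the type III receptor, rose by 0.21 ± 0.08 in HepG2 and fell by 0.22 ± 0.08 in Huh6 (adjusted p of the difference = 0.00231). The calls of IFNLR1 within a line were lost in 6 of 18 other settings in HepG2 and 5 of 18 in Huh6 (adjusted p up to 0.119 and 0.137). The other chains, IFNAR2 of the type I and IL10RB of the type III receptor, had at most 14 and 6 counts over any group. Whether these transcripts were scarce or their reads went uncounted was not tested. Some genes that most cells use, such as IRF1, were listed at 0. Counts of the ligands were low too. IFNL1 had 18 counts over the 3 HepG2 libraries with iMDK and 0 with vehicle, and 8 in Huh6 with iMDK and 16 with vehicle, and IFNB1 had 1 count in HepG2 with iMDK and 0 in the other groups. These counts were too low to pass the filter and were not tested.

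Antigen presentation and cytokine genes followed in part. Of 14 tested MHC class I genes, 7 were higher and 1 lower in HepG2, and 1 was higher and 4 lower in Huh6, and the line difference was called for 6 in the positive and 1 in the negative direction. Over all genes 23.4% were higher and 23.5% lower in HepG2, and 14.6% higher and 18.3% lower in Huh6, so the few calls in Huh6 are not far from those shares. HLA-B had 169, 165 and 167 CPM in HepG2 with iMDK, against 109.6, 110.5 and 107 CPM with vehicle, a rise of 0.61 ± 0.04. The Huh6 libraries had 1.94, 1.66 and 2.37 CPM with iMDK, against 1.98, 1.92 and 2.04 CPM with vehicle, and had a log2 fold change of 0.01 ± 0.17. HLA genes are close in sequence, so reads may be shared between them. B2M, the invariant chain, rose in both lines, by 0.73 ± 0.03 in HepG2 and 0.44 ± 0.04 in Huh6 (adjusted p of the difference = 4.39e-06).

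Of 10 tested chemokine and cytokine genes 7 rose and 1 fell in HepG2 (23.4% and 23.5% of all genes), and 5 rose and 2 fell in Huh6 (14.6% and 18.3%), with 5 line differences positive and 0 negative (15.6% and 17%). LIF, a cytokine of the IL-6 family, had 61.7, 65.9 and 56.2 CPM in HepG2 with iMDK, against 20.1, 24.3 and 21.5 CPM with vehicle, and 20.6, 22.6 and 20.3 CPM in Huh6 with iMDK, against 14.2, 13.97 and 14.2 CPM with vehicle. The groups did not overlap in either line, and the log2 fold changes were 1.48 ± 0.07 and 0.58 ± 0.08 (adjusted p of the difference = 2.81e-08). IL11, of the same family, rose by 1.19 ± 0.07 in HepG2 and had a log2 fold change of 0.19 ± 0.24 in Huh6 (adjusted p of the difference = 0.00263). The chemokine CCL20 rose by 0.23 ± 0.04 in HepG2 and fell by 0.64 ± 0.21 in Huh6, where it had 0.993, 1.21 and 1.58 CPM with iMDK, against 1.78, 1.92 and 2.19 CPM with vehicle, and the call was lost in the fit per line and without the first Huh6 iMDK library or the third Huh6 vehicle library (adjusted p up to 0.0987). TNFSF9, the ligand of the T cell co-stimulator 4-1BB, rose by 1.42 ± 0.13 in HepG2 and had a log2 fold change of 0.16 ± 0.14 in Huh6, while the checkpoint protein CD276 rose by 0.14 ± 0.03 in HepG2 and fell by 0.30 ± 0.03 in Huh6.

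The largest HepG2-specific rises included genes that HepG2 hardly expressed and Huh6 expressed already. CATSPERG, a subunit of a sperm calcium channel (chr19:38335775-38370943), had 35.8, 39.5 and 35.3 CPM in HepG2 with iMDK, against 1.98, 1.46 and 2.07 CPM with vehicle. Huh6 cells had 97.1, 93.1 and 92.95 CPM with iMDK, against 68.6, 71.99 and 74.2 CPM with vehicle, above every HepG2 library. The log2 fold changes were 4.33 ± 0.10 in HepG2 and 0.40 ± 0.05 in Huh6. The transcription factor KLF4 had 18.9, 17.5 and 18.3 CPM in HepG2 with iMDK, against 0.729, 1.35 and 0.895 CPM with vehicle, and 15.1, 17.7 and 12.7 CPM in Huh6 with iMDK, against 12.1, 14.8 and 11.1 CPM with vehicle, so treated HepG2 overlapped treated Huh6 and exceeded Huh6 vehicle. TUSC3 (4.22 ± 0.21 in HepG2 and -0.23 ± 0.05 in Huh6), EPSTI1 (4.58 ± 0.25 and 0.33 ± 0.07) and the BH3-only death gene HRK (3.42 ± 0.32 and 0.30 ± 0.19) were likewise lower in HepG2 vehicle than in any Huh6 library. For KLHDC7B the vehicle groups of both lines overlapped, with 82.9, 86.1 and 92.4 CPM in HepG2 with iMDK, against 3.904, 3.33 and 4.64 CPM with vehicle, and 4.27, 6.002 and 4.35 CPM in Huh6 with iMDK, against 3.303, 6.08 and 4.33 CPM with vehicle.

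Proliferation genes fell in both lines, and several times more in HepG2. Of 27 tested genes of mitosis, 27 fell in HepG2 and 25 in Huh6, and the line difference was called negative for all 27, where 23.5% of all genes fell in HepG2, 18.3% fell in Huh6 and 17% had a negative line difference. The median log2 fold change was -1.22 in HepG2 and -0.22 in Huh6. For 31 genes of DNA replication, 31 fell in HepG2 and 23 in Huh6, again with all 31 line differences called, and medians of -1.25 and -0.16. Summed over the mitosis list the level was 1550 to 1600 CPM in HepG2 with iMDK, against 3790 to 3890 CPM with vehicle, and 4330 to 4360 CPM in Huh6 with iMDK, against 5100 to 5190 CPM with vehicle. In bulk RNA, fewer cycling cells and less of these transcripts per cell cannot be told apart.

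MKI67, a marker of cycling cells, had 82.9, 85.5 and 88.1 CPM in HepG2 with iMDK, against 258, 233 and 236 CPM with vehicle. Its Huh6 values were 242, 238 and 273 CPM with iMDK, against 279.6, 279 and 277 CPM with vehicle, so vehicle levels were close and the treated HepG2 libraries stood far below all others. The log2 fold changes were -1.503 ± 0.04 and -0.15 ± 0.04 (adjusted p of the difference = 7.11e-19). TOP2A, the topoisomerase of dividing cells (chr17:40388516-40417950, reverse strand), fell by 1.70 ± 0.03 in HepG2 and 0.44 ± 0.03 in Huh6. The mitotic kinase CDK1 fell by 1.56 ± 0.04 in HepG2 and 0.10 ± 0.03 in Huh6, and the spindle motor KIF11 by 1.501 ± 0.04 and 0.28 ± 0.04. Among replication factors the helicase subunit MCM2 fell by 1.5 ± 0.04 in HepG2 and 0.15 ± 0.03 in Huh6, and CDC45 fell by 1.64 ± 0.07 in HepG2 and had a log2 fold change of -0.14 ± 0.06 in Huh6 (adjusted p = 0.0681). E2F7, a repressor of E2F target genes, fell by 1.47 ± 0.09 in HepG2 and rose by 0.17 ± 0.06 in Huh6, where the call was lost in DESeq2 and without library 1 or 3 of either Huh6 group (adjusted p up to 0.145).

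The promoter stretches of KIF11 and MKI67 are shown for the cell cycle homology region, the element TTTGAA through which mitotic genes are repressed outside division. They are the 250 bases before the start site in RefSeq (GRCh38.p14), at chr10:92592880-92593129 on the forward strand and chr10:128126424-128126673 on the reverse strand, with every match on either strand in capitals.
KIF11: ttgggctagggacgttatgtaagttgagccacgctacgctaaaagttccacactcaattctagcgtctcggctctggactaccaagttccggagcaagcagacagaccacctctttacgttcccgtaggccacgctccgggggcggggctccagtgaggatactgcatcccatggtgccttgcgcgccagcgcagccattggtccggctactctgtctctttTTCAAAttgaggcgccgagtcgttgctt
MKI67: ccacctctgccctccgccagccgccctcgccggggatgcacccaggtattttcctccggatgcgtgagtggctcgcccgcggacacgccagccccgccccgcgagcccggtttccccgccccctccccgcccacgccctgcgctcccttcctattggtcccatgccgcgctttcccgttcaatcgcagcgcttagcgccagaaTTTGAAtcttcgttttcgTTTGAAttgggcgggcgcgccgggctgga
KIF11 held 1 match, 28 bases before its start site, and MKI67 held 2. In the windows of 250 bases before to 50 after the start, 12 of 20 mitosis list members with a sequence held the 6 letters (60.0%), as did 62 of 180 HepG2-specific genes that fell (34.4%), 1119 of 11006 tested genes (10.2%) and 4212 of all 27305 promoters (15.4%). A word this short occurs often, and the shares are given as a description.

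p53 targets rose in both lines but in different proportions. Of 20 tested targets 12 rose and 4 fell in HepG2 (23.4% and 23.5% of all genes), and 18 rose and 0 fell in Huh6 (14.6% and 18.3%), so the falls in HepG2 are near the share over all genes. The cell cycle inhibitor CDKN1A had 389.6, 403 and 398 CPM in HepG2 with iMDK, against 177, 181 and 184 CPM with vehicle, and 216, 227 and 223 CPM in Huh6 with iMDK, against 153, 151 and 141 CPM with vehicle. It rose by 1.13 ± 0.03 in HepG2 and 0.58 ± 0.03 in Huh6 (adjusted p of the difference = 7.82e-12), and the kinase PLK3 likewise rose more in HepG2 (1.16 ± 0.08 in HepG2 and 0.51 ± 0.11 in Huh6, adjusted p of the difference = 0.000441). ZMAT3, an RNA-binding p53 target, fell by 0.14 ± 0.05 in HepG2 and rose by 0.66 ± 0.05 in Huh6, the HepG2 call being lost without HepG2 iMDK library 1 or 2 or HepG2 vehicle library 1 or 3 (adjusted p up to 0.126). FDXR, a mitochondrial reductase, had a log2 fold change of -0.03 ± 0.03 in HepG2 (adjusted p = 0.584) and rose by 0.73 ± 0.04 in Huh6, and the polymerase POLH fell by 0.25 ± 0.07 in HepG2, at the threshold without the second HepG2 iMDK library (adjusted p = 0.05), and rose by 0.39 ± 0.07 in Huh6. RRM2B, a ribonucleotide reductase subunit, rose in both, by 0.54 ± 0.04 in HepG2 and 0.54 ± 0.04 in Huh6, with a 95% interval of the difference of -0.12 to 0.13.

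Sterol genes went in opposite directions. Cholesterol synthesis is driven by the transcription factor SREBF2, which raises the whole pathway when cell cholesterol is low. Of 24 tested genes, 20 rose and 1 fell in HepG2 (23.4% and 23.5% of all genes), while 1 rose and 18 fell in Huh6 (14.6% and 18.3%), and the line difference was called positive for 20 (15.6%). Medians were 0.61 in HepG2 and -0.30 in Huh6, and 16 genes were called up in HepG2 and down in Huh6. HMGCS1, which makes the substrate of HMG-CoA reductase (chr5:43289395-43313512, reverse strand), had 352, 391 and 379 CPM in HepG2 with iMDK, against 174, 179 and 179 CPM with vehicle. In Huh6 it had 212, 219 and 216 CPM with iMDK, against 295, 317 and 304 CPM with vehicle, so that HepG2 was above Huh6 with iMDK and below it with vehicle. It rose by 1.07 ± 0.03 in HepG2 and fell by 0.50 ± 0.03 in Huh6, a difference of 1.57 ± 0.05 (adjusted p = 8.25e-23).

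MVD, a decarboxylase of the pathway, rose by 1.08 ± 0.04 in HepG2 and had a log2 fold change of -0.02 ± 0.04 in Huh6 (adjusted p = 0.666), and the sterol oxidase MSMO1 rose by 0.79 ± 0.03 in HepG2 and fell by 0.31 ± 0.03 in Huh6. SREBF2 itself rose by 0.16 ± 0.03 in HepG2 and fell by 0.15 ± 0.03 in Huh6, a small change. INSIG1 was almost absent from HepG2, with counts in 1 of 6 libraries, so that its fold change there carries no information.

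**Figure D3:**
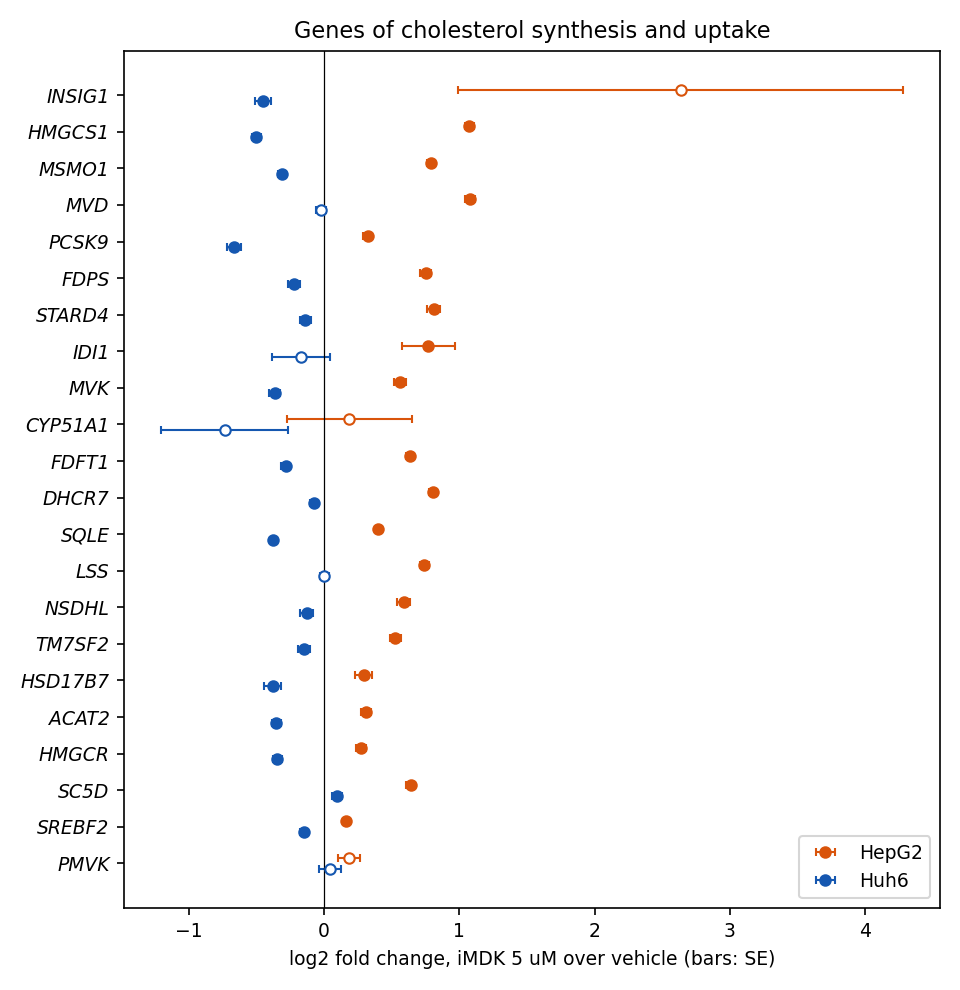
Log2 fold change of iMDK 5 uM over vehicle with its SE (bars) for 22 of the 24 tested genes of cholesterol synthesis and uptake in HepG2 and Huh6, ordered by the line difference, from 3 libraries per group; open points did not pass the adjusted p threshold of 0.05. HepG2 points lie right of 0 and Huh6 points left of 0 for most genes.

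Fatty acid genes showed the same contrast, with 10 of 14 up and 3 down in HepG2, and 0 up and 11 down in Huh6. Against 23.4% of all genes up in HepG2 and 18.3% down in Huh6 these are large shares, while the 3 falls in HepG2 are near the 23.5% over all genes. The desaturase FADS2 had 115, 118 and 113 CPM in HepG2 with iMDK, against 65.02, 68.6 and 69.7 CPM with vehicle, and 83.2, 81.4 and 85.1 CPM in Huh6 with iMDK, against 122, 120.2 and 121 CPM with vehicle. Neither line's groups overlapped, and FADS2 rose by 0.77 ± 0.04 in HepG2 and fell by 0.54 ± 0.04 in Huh6. ACSS2, which makes acetyl-CoA from acetate, rose by 1.24 ± 0.04 in HepG2 and fell by 0.24 ± 0.04 in Huh6, and the desaturase SCD rose by 0.40 ± 0.02 in HepG2 and fell by 0.31 ± 0.02 in Huh6. LPIN1, a phosphatidate phosphatase, rose by 1.21 ± 0.05 in HepG2 and had a log2 fold change of 0.07 ± 0.05 in Huh6 (adjusted p = 0.268).

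Genes of the endoplasmic reticulum differed in the same direction by smaller amounts. Of 20 tested chaperones and stress genes, 12 rose and 4 fell in HepG2, and 0 rose and 13 fell in Huh6, with 17 line differences called positive and 0 negative. Over all genes 23.4% rose in HepG2, 18.3% fell in Huh6 and 15.6% had a positive line difference, and the 4 falls in HepG2 are near the 23.5% over all genes. DNAJB9, a co-chaperone of the organelle, had 86.04, 83.9 and 88.4 CPM in HepG2 with iMDK, against 40.4, 39.9 and 40.99 CPM with vehicle, a rise of 1.09 ± 0.05. The Huh6 libraries had 41.2, 44.9 and 40.7 CPM with iMDK, against 41.9, 45.3 and 43.6 CPM with vehicle, and the groups overlapped. HSPA5, the main chaperone BiP, rose by 0.38 ± 0.02 in HepG2 and fell by 0.12 ± 0.02 in Huh6, and HYOU1 rose by 0.35 ± 0.03 and fell by 0.25 ± 0.03. ERN1, the stress sensor IRE1, rose by 0.87 ± 0.06 in HepG2 and had a log2 fold change of 0.12 ± 0.08 in Huh6 (adjusted p = 0.302). CALR fell in both lines, by 0.33 ± 0.02 in HepG2 and 0.36 ± 0.02 in Huh6.

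Integrated stress response genes rose in part in both lines, 12 of 21 up and 2 down in HepG2 (23.4% and 23.5% of all genes) and 10 up and 3 down in Huh6 (14.6% and 18.3%), so the falls were no more frequent than over all genes. PPP1R15A, which restores translation, had 150.5, 152 and 148 CPM in HepG2 with iMDK, against 46.5, 47.3 and 47.7 CPM with vehicle, and 137, 145 and 131 CPM in Huh6 with iMDK, against 93.7, 101 and 92.1 CPM with vehicle. The rise was 1.67 ± 0.04 in HepG2 and 0.53 ± 0.04 in Huh6 (adjusted p of the difference = 4.38e-17). CEBPB rose by 0.61 ± 0.05 in HepG2 and had a log2 fold change of -0.14 ± 0.06 in Huh6 (adjusted p = 0.0588). SLC7A11, the cystine transporter that both ATF4 and NRF2 induce, rose by 1.68 ± 0.09 in HepG2 and 0.65 ± 0.08 in Huh6 (adjusted p of the difference = 1.32e-08).

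Targets of the antioxidant factor NRF2 rose in both lines, and most of them rose more in Huh6. NRF2 binds antioxidant response elements and raises enzymes of glutathione, thioredoxin and NADPH supply. Of 19 tested targets, 13 rose and 2 fell in HepG2 (23.4% and 23.5% of all genes), and 19 rose and 0 fell in Huh6 (14.6% and 18.3%). The line difference was negative for 13 (17% of all genes) and positive for 3, near the 15.6% over all genes. TXNRD1, a thioredoxin reductase, was shared, with 1064, 1059 and 1055 CPM in HepG2 with iMDK, against 464, 435 and 452 CPM with vehicle. Huh6 cells had 1256, 1289 and 1229 CPM with iMDK, against 369, 380.5 and 358 CPM with vehicle, so Huh6 was above HepG2 with iMDK and below it with vehicle. Log2 fold changes were 1.23 ± 0.03 and 1.77 ± 0.03 (adjusted p of the difference = 5.54e-13). GCLM, the modifier subunit of the enzyme that begins glutathione synthesis, rose by 1.12 ± 0.04 in HepG2 and 1.63 ± 0.04 in Huh6.

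The GCLM promoter is shown as the shared member of this list with a single match to TGACNNNGC, the core of the antioxidant response element. It is the 250 bases before the start site in RefSeq at chr1:93909431-93909680 (GRCh38.p14), read on the reverse strand, with the match, on the opposite strand, in capitals.
GCLM: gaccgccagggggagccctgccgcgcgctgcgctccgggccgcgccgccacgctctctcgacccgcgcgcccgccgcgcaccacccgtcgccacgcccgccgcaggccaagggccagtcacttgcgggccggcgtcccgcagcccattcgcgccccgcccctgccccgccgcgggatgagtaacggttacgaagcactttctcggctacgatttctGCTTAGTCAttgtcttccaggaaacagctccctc
The match starts 34 bases before the start site. In the windows of 250 bases before to 50 after the start, 4 of 14 NRF2 list members with a sequence held one (28.6%). So did 9 of 41 shared risers (22%) and 1 of 16 Huh6-specific risers (6.25%). Of tested genes 1676 of 11006 held one (15.2%), and of all 27305 promoters 3702 (13.6%). The letters are not particular to NRF2 targets, as 7 of 23 interferon-stimulated (30.4%) and 8 of 17 integrated stress response genes (47.1%) held them.

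The vehicle levels of single NRF2 targets differed between the lines in either direction. NQO1, a quinone reductase, had 893, 909 and 901 CPM in HepG2 with iMDK, against 800.02, 756 and 787 CPM with vehicle, and 29.6, 26.5 and 27.7 CPM in Huh6 with iMDK, against 11.2, 12.8 and 11.02 CPM with vehicle. It rose by 0.21 ± 0.03 in HepG2 and 1.26 ± 0.06 in Huh6, and even the treated Huh6 libraries stayed far below HepG2 vehicle. OSGIN1 rose by 0.94 ± 0.05 in HepG2 and 2.67 ± 0.07 in Huh6. HMOX1, the haem-degrading enzyme, was lower in HepG2, with a mean of 90.4 CPM in HepG2 vehicle and 199 CPM in Huh6 vehicle, and it fell by 0.20 ± 0.04 in HepG2 and rose by 0.67 ± 0.04 in Huh6 (adjusted p of the difference = 7.75e-15), whereas the ferritin chain FTH1 rose by 0.36 ± 0.06 and 0.34 ± 0.06 with no called difference (adjusted p = 0.91).

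Aldo-keto reductases, enzymes that reduce aldehydes and steroids, included genes that rose far more in Huh6. AKR1B10 (chr7:134527592-134541408) had 227, 229 and 208 CPM in HepG2 with iMDK, against 101, 95.6 and 104 CPM with vehicle. In Huh6 it had 25.2, 27.3 and 24.5 CPM with iMDK, against 0.508, 0.623 and 0.51 CPM with vehicle. It rose by 1.14 ± 0.04 in HepG2 and 5.54 ± 0.14 in Huh6, a difference of -4.40 ± 0.16 (adjusted p = 1.19e-20). AKR1C1 rose by 0.99 ± 0.03 in HepG2 and 3.16 ± 0.10 in Huh6, and AKR1C2 by 0.46 ± 0.04 and 2.73 ± 0.07. AKR1C1 and AKR1C2 are near-identical copies, so their counts may be split between them. Among 10 tested reductases 5 rose and 4 fell in HepG2 and 6 rose and 2 fell in Huh6, and 7 line differences were called, all negative (17% of all genes). Over all genes 23.4% rose and 23.5% fell in HepG2 and 14.6% rose and 18.3% fell in Huh6, so the 2 falls in Huh6 are near that share.

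**Figure D4:**
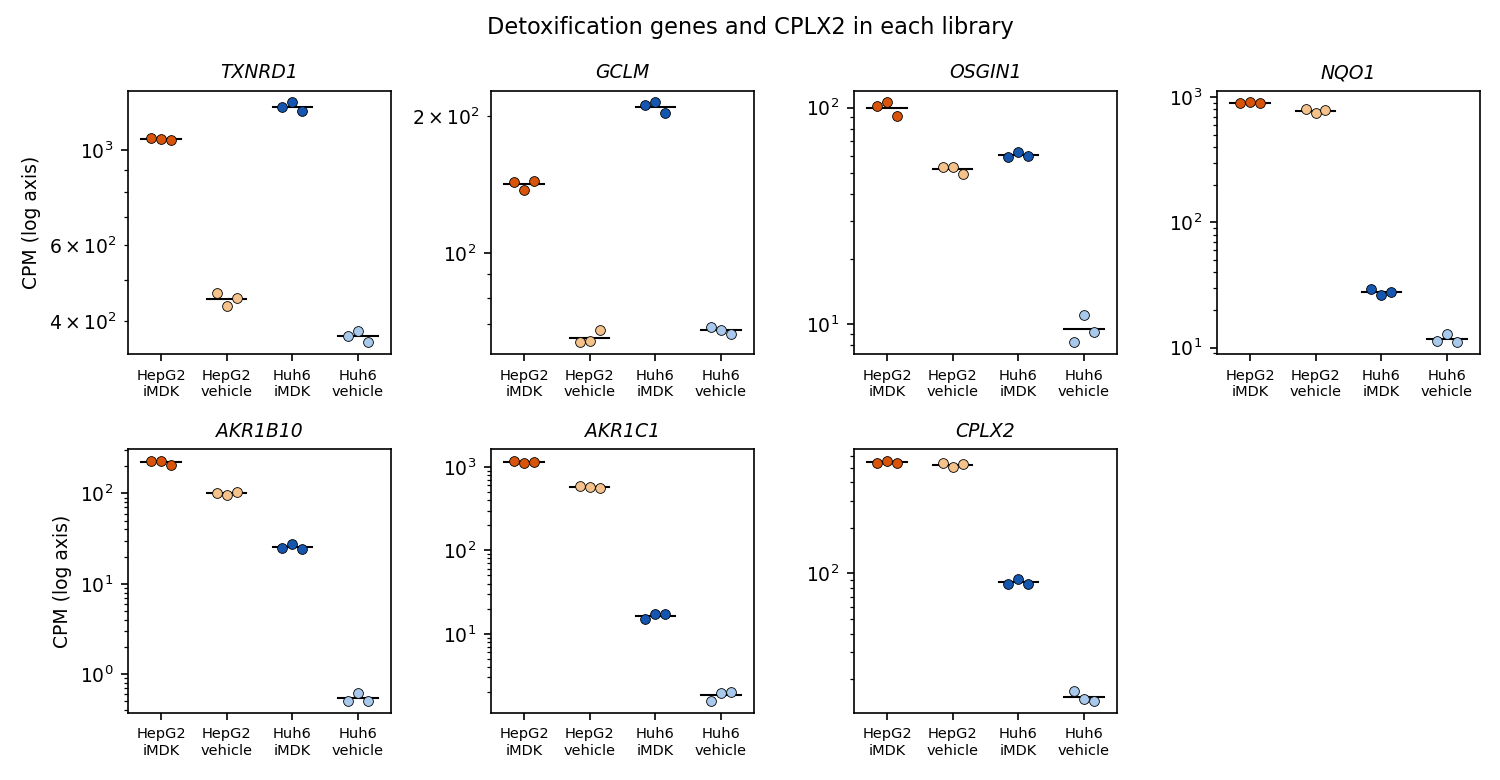
CPM on log axes for 6 NRF2 and aldo-keto reductase genes and for CPLX2, in each of 3 libraries per group (points) with the group mean (line), for HepG2 with iMDK, HepG2 with vehicle, Huh6 with iMDK and Huh6 with vehicle. The treated Huh6 libraries lie above their vehicle in every panel, while for NQO1, AKR1B10, AKR1C1 and CPLX2 all Huh6 libraries lie below all HepG2 libraries.

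Heat shock genes also favoured Huh6, with 6 of 15 up and 3 down in HepG2 and 11 up and 0 down in Huh6, and 11 line differences called negative (17% of all genes). The rises in Huh6 stand against 14.6% of all genes, and the 6 rises and 3 falls in HepG2 against 23.4% and 23.5%, the falls being near that share. HSPA1A, an inducible HSP70 with a near-identical copy beside it, rose by 0.38 ± 0.05 in HepG2 and by 1.05 ± 0.20 in Huh6, where it was only 2.58, 2.07 and 2.27 CPM with iMDK, against 1.22, 1.09 and 1.02 CPM with vehicle. HSPA4L rose by 0.19 ± 0.05 in HepG2, a call lost without the second HepG2 iMDK library (adjusted p = 0.0529), and by 0.73 ± 0.06 in Huh6. HSPD1, the mitochondrial chaperonin, fell by 0.45 ± 0.02 in HepG2 and had a log2 fold change of -0.03 ± 0.02 in Huh6 (adjusted p = 0.432).

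CPLX2, a complexin that regulates vesicle fusion (chr5:175796310-175884020), rose by more than any Huh6-specific gene but AKR1C2. It had 537, 553 and 534 CPM in HepG2 with iMDK, against 536, 507 and 529.6 CPM with vehicle, and 85.1, 91.8 and 85.1 CPM in Huh6 with iMDK, against 16.7, 14.8 and 14.4 CPM with vehicle. The HepG2 groups overlapped, with a log2 fold change of 0.05 ± 0.03 (adjusted p = 0.236), and the Huh6 groups stood far apart, a rise of 2.51 ± 0.05. TAGLN, an actin-binding protein of smooth muscle, had a log2 fold change of 0.02 ± 0.05 in HepG2 (adjusted p = 0.85) and rose by 2.02 ± 0.08 in Huh6. LIFR, the receptor for LIF, fell by 0.44 ± 0.07 in HepG2 and rose by 1.18 ± 0.06 in Huh6, and the BH3-only gene BIK had a log2 fold change of -0.07 ± 0.15 in HepG2 (adjusted p = 0.76) and rose by 1.40 ± 0.20 in Huh6.

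Among Huh6-specific genes that fell, CYP1A1, a monooxygenase induced through the aryl hydrocarbon receptor, had 10.3, 9.54 and 11.4 CPM in HepG2 with iMDK, against 10.4, 11.1 and 9.23 CPM with vehicle, and 22.1, 19.7 and 22.7 CPM in Huh6 with iMDK, against 63.9, 68.1 and 67.6 CPM with vehicle. The HepG2 groups overlapped, and the fall in Huh6 was 1.63 ± 0.06. APOM, an apolipoprotein, fell by 0.11 ± 0.04 in HepG2 and 1.29 ± 0.04 in Huh6, and FABP1, the liver fatty acid-binding protein, by 0.25 ± 0.04 in HepG2 and 1.07 ± 0.08 in Huh6. The HepG2 call of APOM was lost without the third HepG2 iMDK library or the first HepG2 vehicle library (adjusted p = 0.055 and 0.0857). SUSD2 had a log2 fold change of 0.17 ± 0.08 in HepG2 (adjusted p = 0.0851) and fell by 1.38 ± 0.08 in Huh6. RGS5 had 0.791, 0.944 and 1.41 CPM in HepG2 with iMDK, against 0.833, 0.935 and 0.671 CPM with vehicle, and in Huh6 it fell by 1.06 ± 0.07.

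Besides the sterol genes, the genes with opposite responses included AGR2, LIPG and MT2A. AGR2, a disulphide isomerase of secretory cells (chr7:16791811-16833433, reverse strand), had 20.9, 20.7 and 19.4 CPM in HepG2 with iMDK, against 3.18, 1.82 and 2.91 CPM with vehicle, a rise of 2.95 ± 0.10. The Huh6 libraries had 104, 101 and 101 CPM with iMDK, against 171, 175 and 176 CPM with vehicle, a fall of 0.76 ± 0.04. The lines came closer together but did not meet. LIPG, the endothelial lipase, had the same arrangement, with 19.3, 18.7 and 22.02 CPM in HepG2 with iMDK, against 4.22, 3.43 and 3.36 CPM with vehicle, and 169.9, 181 and 173 CPM in Huh6 with iMDK, against 299, 306 and 307 CPM with vehicle. MT2A, a metal-binding metallothionein, rose by 1.24 ± 0.04 in HepG2 and fell by 0.67 ± 0.07 in Huh6. Its paralogues MT1G (-1.06 ± 0.14 in HepG2 and -1.74 ± 0.15 in Huh6) and MT1F (-1.19 ± 0.16 and -1.81 ± 0.12) fell in both lines, and reads may be shared among these close copies. Of 7 tested genes in the metallothionein list, 4 rose and 2 fell in HepG2 (23.4% and 23.5% of all genes). In Huh6 1 rose and 3 fell (14.6% and 18.3%). The 2 falls in HepG2 and the 1 rise in Huh6 are near the shares over all genes.

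EEF1A2, a translation elongation factor, rose by 1.17 ± 0.10 in HepG2 and fell by 0.90 ± 0.09 in Huh6, the fatty acid hydroxylase CYP4F2 rose by 1.21 ± 0.12 and fell by 0.79 ± 0.15, and the receptor kinase TIE1 rose by 0.85 ± 0.17 and fell by 1.64 ± 0.19. In the other direction there were 6 genes. MAT1A, which makes S-adenosylmethionine in adult liver, had 119, 123 and 119 CPM in HepG2 with iMDK, against 192, 191 and 194 CPM with vehicle, and 20.5, 23.3 and 19.6 CPM in Huh6 with iMDK, against 11.5, 12.6 and 10.6 CPM with vehicle. It fell by 0.68 ± 0.04 in HepG2 and rose by 0.87 ± 0.07 in Huh6. PPP2R2C, a phosphatase 2A subunit, fell by 0.79 ± 0.13 in HepG2 and rose by 1.59 ± 0.21 in Huh6, the retinal dehydrogenase ALDH1A1 by 0.59 ± 0.03 and 0.51 ± 0.03, and the collagen COL16A1 by 0.51 ± 0.08 and 0.72 ± 0.15.

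Wnt/beta-catenin targets fell in both lines by modest amounts. Of 18 tested targets 1 rose and 10 fell in HepG2, and 2 rose and 12 fell in Huh6, with medians of -0.39 and -0.26. Over all genes 23.4% rose and 23.5% fell in HepG2, and 14.6% rose and 18.3% fell in Huh6, so the 2 rises in Huh6 are near that share. AXIN2, a feedback inhibitor and common readout of the pathway, had 129, 123 and 116 CPM in HepG2 with iMDK, against 143, 155 and 150.1 CPM with vehicle, and 169.8, 177 and 171 CPM in Huh6 with iMDK, against 203, 205 and 208 CPM with vehicle. It fell by 0.28 ± 0.04 in HepG2 and 0.25 ± 0.04 in Huh6, with a 95% interval of the difference of -0.14 to 0.07. The feedback inhibitor NKD1 fell by 0.39 ± 0.03 and 0.43 ± 0.03, with an interval of -0.04 to 0.12. Others differed. The antagonist DKK1 had 215, 219 and 217 CPM in HepG2 with iMDK, against 623, 621 and 636 CPM with vehicle, and 488, 470.4 and 479 CPM in Huh6 with iMDK, against 606, 622 and 605 CPM with vehicle, which overlapped between lines with vehicle and not with iMDK. It fell by 1.53 ± 0.03 in HepG2 and 0.35 ± 0.03 in Huh6 (adjusted p of the difference = 1.4e-22). LGR5 fell by 0.47 ± 0.04 in HepG2 and had a log2 fold change of 0.13 ± 0.05 in Huh6 (adjusted p = 0.0663), while NOTUM fell more in Huh6 (-0.51 ± 0.03 in HepG2 and -0.93 ± 0.07 in Huh6, adjusted p of the difference = 5.73e-05). CTNNB1, which encodes beta-catenin, fell by 0.26 ± 0.02 in HepG2 and had a log2 fold change of -0.04 ± 0.02 in Huh6 (adjusted p = 0.2).

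Liver secretory and fetal genes fell in both lines. Of 18 tested fetal liver genes 2 rose and 14 fell in HepG2, and 0 rose and 12 fell in Huh6. Of 24 tested plasma protein genes 4 rose and 16 fell in HepG2, and 0 rose and 18 fell in Huh6, with medians of -0.19 and -0.48 and 15 line differences called positive and 5 negative (15.6% and 17% of all genes). For both lists the falls stand against 23.5% of all genes in HepG2 and 18.3% in Huh6, and the 4 rises of plasma protein genes in HepG2 are near the 23.4% over all genes. AFP fell by 0.55 ± 0.03 in HepG2 and 0.95 ± 0.05 in Huh6, where its level was 33.8, 32.1 and 35.4 CPM with iMDK, against 61.2, 63.8 and 71.04 CPM with vehicle. ALB fell by 0.51 ± 0.03 in HepG2, and in Huh6, at under 4 CPM, it had a log2 fold change of -0.33 ± 0.15 (adjusted p = 0.112). The iron carrier TF fell by 0.35 ± 0.03 in HepG2 and 0.72 ± 0.03 in Huh6, whereas the haem carrier HPX fell more in HepG2 (-1.38 ± 0.11 in HepG2 and -0.47 ± 0.09 in Huh6, adjusted p of the difference = 4.4e-06). APOA2 rose by 0.43 ± 0.02 in HepG2 and fell by 0.50 ± 0.03 in Huh6. The oncofetal genes GPC3 (-0.08 ± 0.02 in HepG2 and -0.37 ± 0.02 in Huh6) and IGF2 (-0.63 ± 0.03 and -1.20 ± 0.04) both fell more in Huh6 (adjusted p of the difference = 9.1e-09 and 1.6e-11). KRT19, a keratin of bile duct and progenitor cells, rose by 0.80 ± 0.03 in HepG2 and fell by 0.15 ± 0.03 in Huh6.

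**Figure D5:**
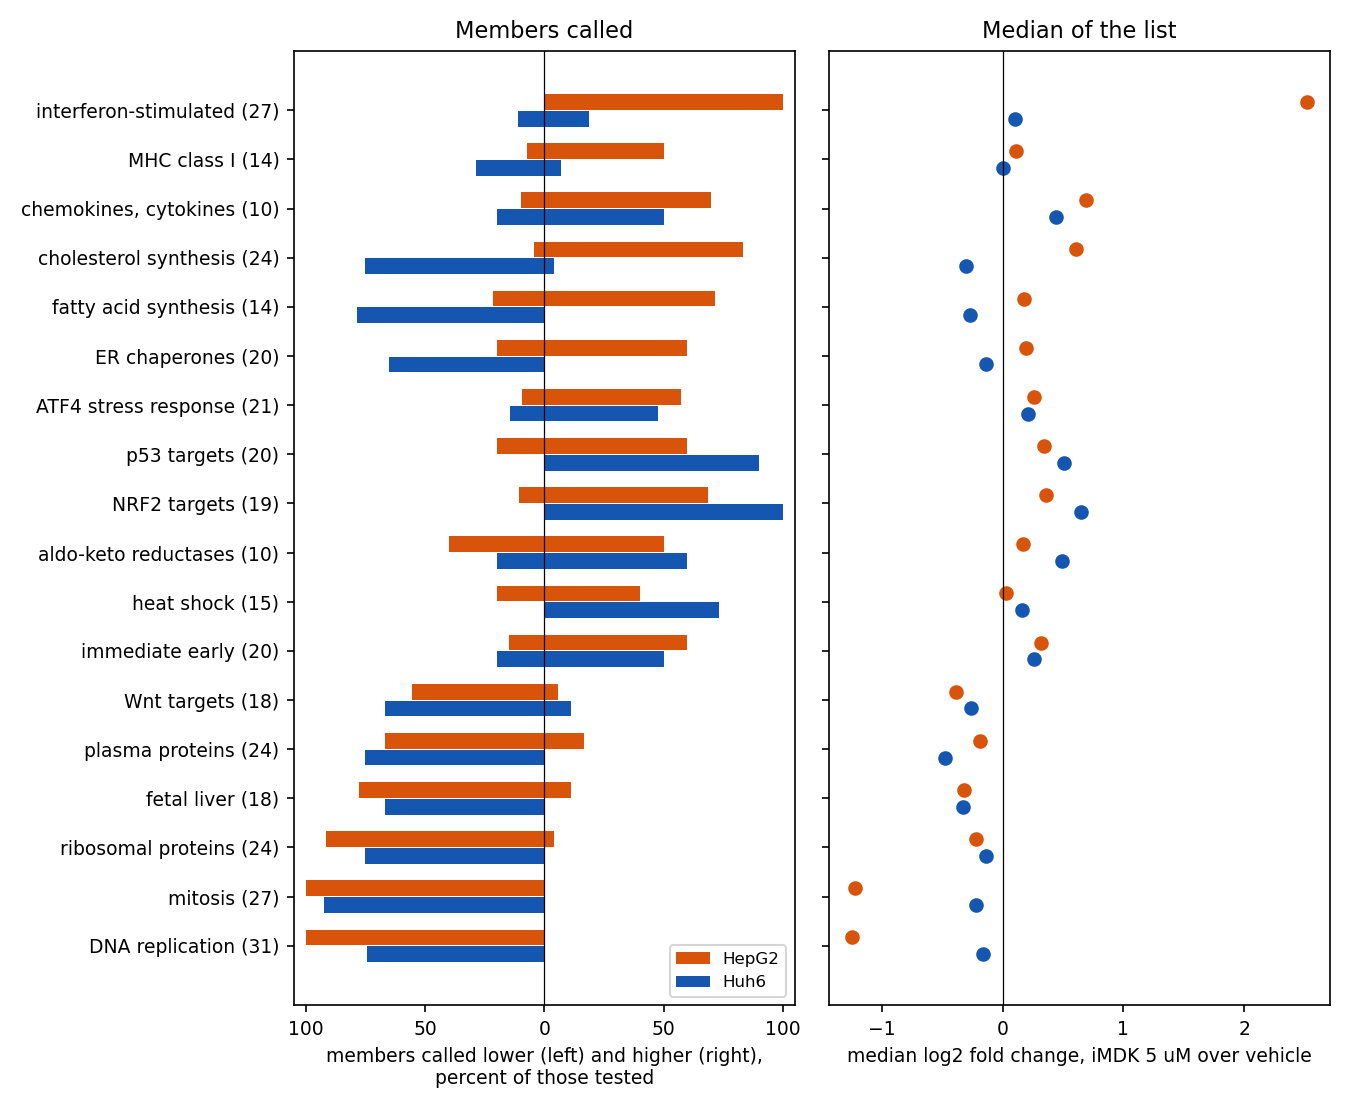
For 18 gene lists (number of tested members in brackets), the percent of members called lower (bars to the left) and higher (bars to the right) and the median log2 fold change of iMDK 5 uM over vehicle (points), for HepG2 above Huh6, from 3 libraries per group. Interferon-stimulated, sterol and chaperone lists lie to the right in HepG2 and near or left of 0 in Huh6, NRF2, p53 and heat shock lists lie farther right in Huh6, and both proliferation lists lie far to the left in HepG2.

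BCL2 family genes, which govern cell death, differed widely among themselves. Of 12 tested 5 rose and 1 fell in HepG2 (23.4% and 23.5% of all genes), and 7 rose and 1 fell in Huh6 (14.6% and 18.3%), so falls were rarer than over all genes. PMAIP1, the BH3-only protein NOXA, had 30.95, 33.8 and 35.2 CPM in HepG2 with iMDK, against 5.62, 5.56 and 6.43 CPM with vehicle, and 16.7, 15.3 and 14.3 CPM in Huh6 with iMDK, against 8.74, 9.401 and 8.87 CPM with vehicle. The rise was 2.51 ± 0.09 in HepG2 and 0.78 ± 0.09 in Huh6 (adjusted p of the difference = 1.89e-12), and no groups overlapped within a line. BMF, another BH3-only gene, had a log2 fold change of -0.08 ± 0.06 in HepG2 (adjusted p = 0.351) and fell by 0.57 ± 0.04 in Huh6. Of 24 ribosomal protein genes 1 rose and 22 fell in HepG2, and 0 rose and 18 fell in Huh6 (23.5% and 18.3% of all genes fell), by small amounts with medians of -0.22 and -0.14. RPS2, for one, fell by 0.44 ± 0.03 in HepG2 and 0.17 ± 0.03 in Huh6. Of 13 mitochondrially encoded genes 4 rose in HepG2 and 4 fell in Huh6, not far from the 23.4% and 18.3% over all genes. MT-CO1, a subunit of cytochrome oxidase, rose by 0.33 ± 0.07 in HepG2, where its groups overlapped, with 9852, 9900.10 and 8473 CPM with iMDK, against 6352, 9003 and 7132 CPM with vehicle, and had a log2 fold change of -0.04 ± 0.07 in Huh6.

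Called genes changed at least 2-fold in 1 line, with a mean under 1 CPM in both groups of the other, were kept apart from these classes. Some of them were called in the other line too, as IFI44 and OASL were, so not all changed in 1 line only. The vehicle level could be low in both lines, as for IFI27, with means of 0.675 CPM in HepG2 and 0.716 CPM in Huh6. Of genes changed at least 2-fold in HepG2, 298 that rose and 67 that fell had a mean under 1 CPM in both Huh6 groups, and 12 of the 27 interferon-stimulated genes were among them. In Huh6 74 that rose and 115 that fell had a mean under 1 CPM in both HepG2 groups. LCN2, the iron-siderophore binding lipocalin, had 13.01, 13.9 and 11.99 CPM in HepG2 with iMDK, against 1.35, 1.61 and 0.727 CPM with vehicle, and 0 counts in Huh6 with iMDK, against 6 counts over 3 libraries with vehicle. The fall of LCN2 in Huh6 was called (edgeR adjusted p = 0.0429), a call lost in 5 of 17 other settings (adjusted p up to 0.121).

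The higher dose of 10 uM was tested against the same vehicle libraries, so its values are set beside those at 5 uM and compared in no other way. For ISG15 the log2 fold change was 4.005 ± 0.05 at 5 uM and 4.94 ± 0.04 at 10 uM in HepG2, and 0.83 ± 0.07 and 1.34 ± 0.07 in Huh6. For HMGCS1 it was 1.07 ± 0.03 and 0.81 ± 0.03 in HepG2, and -0.50 ± 0.03 and -0.75 ± 0.03 in Huh6. For MKI67 it was -1.503 ± 0.04 and -1.82 ± 0.04 in HepG2, and -0.15 ± 0.04 and -0.32 ± 0.03 in Huh6, and for AKR1B10 1.14 ± 0.04 and 1.35 ± 0.04 in HepG2, and 5.54 ± 0.14 and 5.87 ± 0.14 in Huh6. EGR1, alike at 5 uM, had 2.79 ± 0.06 in HepG2 and 4.03 ± 0.09 in Huh6 at 10 uM, and SQSTM1 2.38 ± 0.03 and 2.30 ± 0.03.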

How the data were processed

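Poly(A) RNA libraries made with a directional kit were sequenced from HepG2 and Huh6 cells after 48 h with 5 uM iMDK or vehicle. The submitters' processing notes name GRCh38 as the build and, as tools, edgeR 3.36, featureCounts, SAMtools 1.16.1 and the aligner STAR 2.7.3a. No source used here gives the strand setting or the annotation release, so reads of overlapping or antisense genes may be shared. The authors deposited whole-number counts per gene, not normalized, for 62696 genes, and every value here was computed from those counts.

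The 12 libraries, 3 in each of 4 groups given by the labels, were fitted in R 4.3.3 with edgeR 4.0.16 (limma 3.58.1): TMM normalization, filterByExpr by group, which left 15431 genes, a model of 4 group means and two-sided quasi-likelihood F tests. P-values were adjusted by Benjamini-Hochberg over all 15431 genes, with a threshold of 0.05, and every adjusted p in the text is from this fit unless DESeq2 is named. CPM use TMM-scaled library sizes. Exceptions are the ranges of single cell type markers, the floors and the folds over vehicle groups at 0 counts, which use unscaled totals. The SE of a log2 fold change is its size divided by the square root of F. Totals of 18287245 to 20037148 counts make 3 counts worth 0.15 to 0.164 CPM, and such floors cover counting error only. The edgeR code was tested on simulated data with known changes. The 10 uM libraries were fitted apart, with the same vehicle libraries.

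Genes and lists were chosen with earlier results of these data known. Named genes came from the largest changes per class, the largest line differences over all genes and per list, and a few fixed genes. Those taken by class or over all genes also needed a mean of at least 4 CPM. Their treated libraries had to lie apart from the vehicle libraries in a line where they changed. For these genes that lack of overlap follows from the choice and is no separate result. Many genes that met the rule for named genes are not named. HSPA5, CALR, FTH1, SREBF2, B2M, RRM2B, IFNAR1, IFIH1, INSIG1, OPTN, NABP1, BICDL1, BCAN, CYP4F11, CSF1R, CD163, ITGAM, COL1A1, COL1A2 and PDGFRB lie outside that rule and were chosen after their values were seen. A few genes are not reported here. Gene coordinates are from GENCODE release 29 and promoters from RefSeq. Alternatives tried were RLE size factors, no filter, DESeq2 1.42.0, a replicate block, all 31 tumour line libraries in the fit, a fit per line, each library left out, and other limits for the classes.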

Additional observations from a re-analysis of the deposited data

Results flagged for a closer look

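A total of 5024 genes answered 5 uM iMDK differently in HepG2 and Huh6, by the test of the line difference. Leaving aside LCN2, at under 1 CPM in Huh6, 12 named genes were called in opposite directions. They changed by at least 0.5 on the log2 scale in both lines. Each is given as the HepG2 minus Huh6 difference of log2 fold changes with its edgeR adjusted p, from 3 libraries per group.

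Of those higher in HepG2 and lower in Huh6, AGR2 differed by 3.71 (adjusted p = 7.35e-23) and LIPG by 3.24 (adjusted p = 7.67e-23). TIE1 differed by 2.49 (adjusted p = 1.35e-09), EEF1A2 by 2.06 (adjusted p = 1.06e-14) and CYP4F2 by 2.0 (adjusted p = 1.72e-10). MT2A differed by 1.91 (adjusted p = 4.11e-19), HMGCS1 by 1.57 (adjusted p = 8.25e-23) and FADS2 by 1.31 (adjusted p = 1.05e-19). Of those lower in HepG2 and higher in Huh6, PPP2R2C differed by -2.38 (adjusted p = 1.37e-09), MAT1A by -1.55 (adjusted p = 9.45e-17), COL16A1 by -1.22 (adjusted p = 3.04e-07) and ALDH1A1 by -1.10 (adjusted p = 7.26e-22). In all 12 the 3 treated libraries lay on the stated side of the 3 vehicle libraries in both lines. For genes named by class this was a condition of being named, so it is no separate result.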

How the results depend on the processing

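The counts of called genes and of classes stayed within 1.5 times under RLE size factors, no filter (28545 genes), DESeq2 1.42.0, all 31 tumour line libraries and, for the counts within a line, a fit per line. Same-numbered treated and vehicle libraries of a line correlated between -0.086 and 0.072 in their deviations. Differently numbered ones correlated between -0.138 and 0.098. With 3 libraries per group these values cannot show whether same-numbered libraries were prepared together. With a replicate block the line difference was called for 2335 genes in the positive and 2582 in the negative direction. That setting moved no count by more than 1.5 times. Leaving out 1 library at a time, the line difference was positive for 2019 to 2259 genes and negative for 2428 to 2787. The ranges were 3216 to 3617 higher and 3371 to 3626 lower in HepG2, and 1885 to 2507 higher and 2434 to 2881 lower in Huh6. For the classes they were 55 to 62 and 14 to 19 shared, 199 to 212 and 226 to 245 HepG2-specific, 23 to 28 and 28 to 39 Huh6-specific, and 48 to 58 and 4 to 8 opposite (higher and lower).

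Class counts moved by over 1.5 times with the limits, which admit more or fewer genes by construction. With a change of at least 1.5-fold there were 141 and 94 shared, 501 and 548 HepG2-specific, and 73 and 138 Huh6-specific genes (higher and lower). With the other line under 0.25 in size there were 129 and 150 HepG2-specific and 9 and 20 Huh6-specific genes, and with the other line under 1 there were 38 higher Huh6-specific genes. With at least 4 CPM in both lines there were 107 higher HepG2-specific and 19 lower Huh6-specific genes. HepG2-specific genes outnumbered Huh6-specific genes in each direction under all of these limits.

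Of 6461 values of named genes under other settings, 6374 stayed on their side of the threshold, 60 lost a call, 27 gained one and 0 changed direction. The 60 belong to 18 results, of which those of MDK, IFIH1 and IFNLR1 were lost most often. For OASL the line difference was lost without the first Huh6 vehicle library (adjusted p = 0.194), and the cause was not tested. Folds of genes under about 1 CPM in a group rest on few counts.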
